A study of Homo sapiens with 18 samples.

Results

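The genes described here make up the core oxygen-sensing machinery of human cells: the hypoxia-inducible factor (HIF) subunits HIF1A, EPAS1 (HIF-2 alpha) and ARNT (HIF-1 beta), the HIF prolyl hydroxylases EGLN1, EGLN2 and EGLN3, the asparaginyl hydroxylase HIF1AN, and VHL. They were taken by gene symbol and not by a rule on measured values, but with earlier results of these data known. They are 8 of the 23686 genes in the deposited tables. RNA of 2 established human lymphoma lines of the diffuse large B-cell type, OCI-Ly1 and TMD8, was depleted of ribosomal RNA and sequenced in bulk. Each line had 3 groups of 3 libraries: DMSO at 0.01% as the vehicle, 150 nM JIB-04 and 500 nM JIB-04. JIB-04 is a small molecule that inhibits Jumonji (JmjC) histone demethylases, and by its title the series concerns the fidelity of heterochromatin in lymphoma. The culture medium, with 10% fetal bovine serum, was IMDM for OCI-Ly1 but RPMI 1640 for TMD8, so line and medium changed together. Treatment time and oxygen tension are not given in the labels. The libraries were made as technical triplicates, and nothing in the labels says that they came from separate cultures. All p-values therefore measure only the spread between these libraries.

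In oxygenated cells the EGLN enzymes hydroxylate prolines of the HIF alpha subunits. VHL, the substrate receptor of a ubiquitin ligase, binds the hydroxylated subunit and marks it for destruction, and HIF1AN hydroxylates an asparagine that otherwise lets HIF alpha bind its coactivators. When oxygen is short the alpha subunit persists, pairs with ARNT and switches on genes of glycolysis, angiogenesis and iron handling. The EGLN enzymes and HIF1AN use iron, oxygen and 2-oxoglutarate, as the JmjC demethylases do, and EGLN1 and EGLN3 are themselves known HIF target genes. Much of this control acts on protein stability and enzyme activity, which RNA levels do not measure.

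The 9 OCI-Ly1 libraries held 17579732 to 32651115 estimated counts, against 9550092 to 20509500 for those of TMD8. The B-cell markers MS4A1, CD79A, CD79B, PAX5 and CD22 were each above 1 TPM (transcripts-per-million, a length-corrected level) in every library of both lines. Of 3 T-cell markers, 2 in OCI-Ly1 and 1 in TMD8 were above 1 TPM in every library, while CD3E was at 0 in every TMD8 library. Summed T-cell markers were 11.8 to 28.5 TPM in OCI-Ly1 and 1.05 to 1.82 TPM in TMD8, and summed endothelial markers 1.23 to 2.48 and 0.661 to 0.979 TPM. In bulk RNA, fewer cells expressing a gene and less RNA per cell cannot be told apart. No library was imputed, and none was dropped except where a result is given without it.

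Promoter sequences are shown first for EPAS1, EGLN1 and EGLN2, the members with the largest changes or with the HIF core motif in its ACGTG form. Each is the 250 bases before the annotated start in RefSeq (GRCh38.p14), 5′ to 3′ on the gene's own strand, with matches to ACGTG or GCGTG on either strand in capitals. EPAS1 lies on the plus strand at chr2:46297157-46297406 and holds 1 GCGTG. The EGLN1 window, on the minus strand at chr1:231422288-231422537, holds 1 ACGTG close to the start. EGLN2 has 2 annotated starts, and its upstream window, on the plus strand at chr19:40798941-40799190, holds the palindrome CACGTG, which reads as ACGTG on each strand.
EPAS1: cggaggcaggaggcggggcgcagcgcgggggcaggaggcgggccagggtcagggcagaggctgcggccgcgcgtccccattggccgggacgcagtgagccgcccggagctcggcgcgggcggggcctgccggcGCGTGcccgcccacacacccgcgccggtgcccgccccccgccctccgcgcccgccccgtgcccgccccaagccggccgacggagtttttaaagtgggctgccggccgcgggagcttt
EGLN1: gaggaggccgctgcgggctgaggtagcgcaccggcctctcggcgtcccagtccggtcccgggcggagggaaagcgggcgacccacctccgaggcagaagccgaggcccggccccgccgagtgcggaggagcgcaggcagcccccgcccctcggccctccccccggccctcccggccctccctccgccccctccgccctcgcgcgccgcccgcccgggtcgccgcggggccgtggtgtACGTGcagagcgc
EGLN2: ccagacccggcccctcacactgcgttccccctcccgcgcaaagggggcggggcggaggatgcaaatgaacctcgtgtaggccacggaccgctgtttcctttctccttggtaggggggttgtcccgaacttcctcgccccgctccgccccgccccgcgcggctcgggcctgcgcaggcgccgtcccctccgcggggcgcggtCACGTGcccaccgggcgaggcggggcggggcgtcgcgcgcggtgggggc
Of the 35116 RefSeq promoter windows of 250 bases, 18.5% hold ACGTG, 32.2% hold GCGTG and 43.2% hold at least 1 of them on either strand. One of the HIF1A windows holds 1 GCGTG, and those of ARNT, EGLN3 and HIF1AN hold neither. A match is a description of the letters in the window and not a measured binding site. The deposited tables were made on another build, hg19 per the submitters' processing notes, and hold no coordinates.

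With DMSO, HIF1A, VHL and EGLN2 were the most abundant members in both lines by TPM, a unit that corrects for transcript length. In OCI-Ly1 HIF1A stood at 59.98 ± 6.35 TPM (SD, n = 3), VHL at 55.7 ± 4.35 and EGLN2 at 47.8 ± 4.59. The libraries of neighbouring genes in this order overlapped, so the order of these 3 was not resolved. ARNT at 18.7 ± 1.12 TPM, EGLN1 at 8.59 ± 1.001 and HIF1AN at 6.26 ± 0.432 followed without overlap. TMD8 had EGLN2 at 74.8 ± 2.88 TPM, HIF1A at 36.1 ± 5.65 and VHL at 16.5 ± 0.565, which did not overlap. HIF1AN at 8.80 ± 0.622, ARNT at 7.79 ± 1.42 and EGLN1 at 7.38 ± 0.920 TPM overlapped one another in TMD8. EGLN3 and EPAS1 were near the detection limit in both lines, at 0.169 and 0.0401 TPM in OCI-Ly1 and at 0.0710 and 0.0456 TPM in TMD8.

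**Figure D1:**
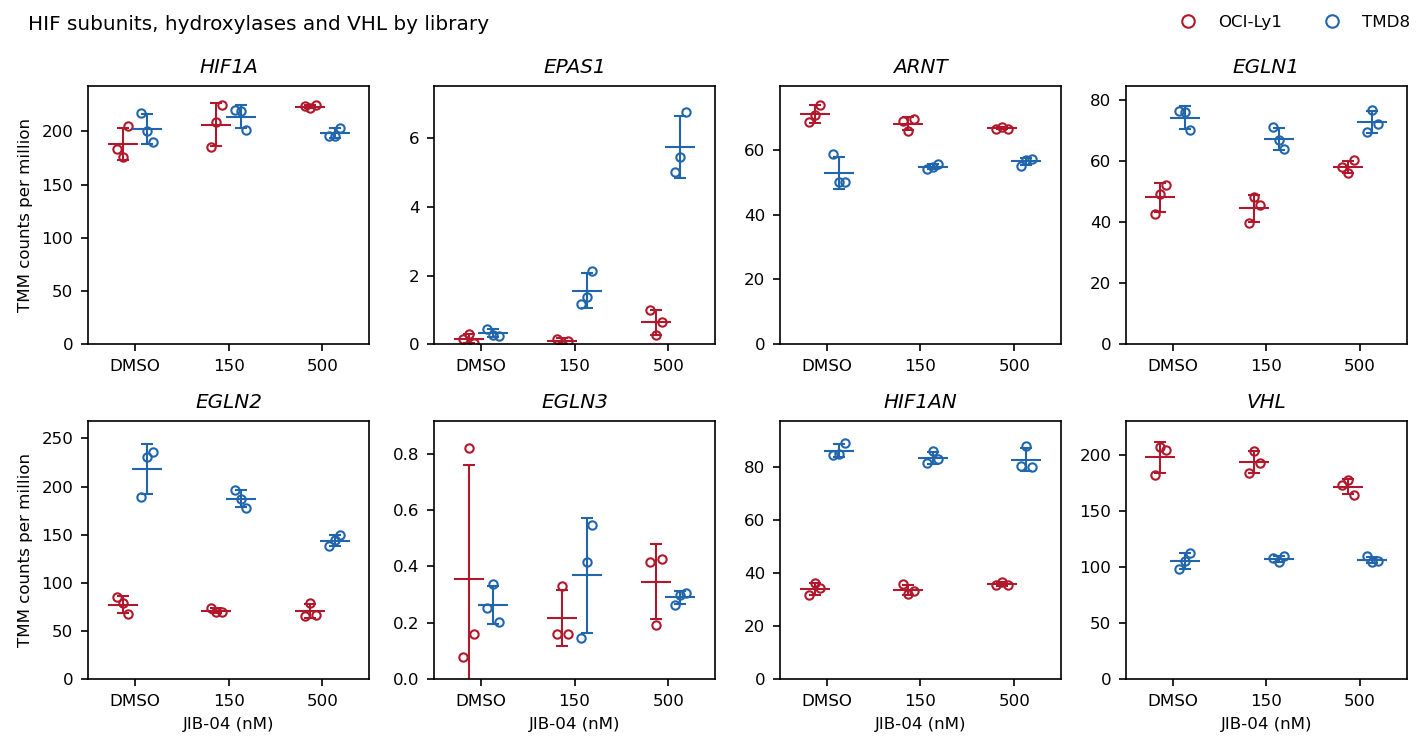
Normalised read counts (TMM-scaled CPM, counts-per-million) of the 8 genes, with points for single libraries, horizontal bars for the mean of 3 libraries and error bars for the SD, by JIB-04 dose in OCI-Ly1 and TMD8. Error bars that would pass below 0 stop at the axis. In TMD8, EPAS1 climbs from 0.325 to 5.74 CPM and EGLN2 descends from 218 to 144, while ARNT, HIF1AN and VHL stay near their DMSO values in that line.

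The changes with dose were tested in each line with the quasi-likelihood test of edgeR across all genes, and a gene was called at a Benjamini-Hochberg adjusted p under 0.05. Both doses of a line were compared with the same 3 DMSO libraries. In OCI-Ly1, 7 of the 8 members passed the low-count filter, EPAS1 being the exception. At 150 nM none of these 7 was called, where 0.889% of all genes tested were, and none had an unadjusted p under 0.05. DESeq2 and limma also called 0 there. At 500 nM 3 of 7 were called against 53.6% of all genes: HIF1A and EGLN1 rose and VHL fell. From 150 to 500 nM 2 of 7 were called, EGLN1 higher and VHL lower, against 46.2% of all genes. In TMD8, 7 members were tested, with EGLN3 below the filter. EPAS1 had 5 to 7 counts per DMSO library there and passed the filter only through its treated libraries, where it was high. EPAS1 rose and EGLN2 fell at 150 nM, 2 of 7 against 44.2% of all genes, and the same 2 members were called at 500 nM against 60.7%, and from 150 to 500 nM against 28.7%. Libraries of the groups compared did not overlap for 0, 4 and 2 members in OCI-Ly1 (14%, 60.7% and 55.6% of all genes) and for 1, 2 and 2 in TMD8 (51.4%, 66.4% and 44.8%), in the order 150 nM against DMSO, 500 nM against DMSO and 500 against 150 nM. The median log2 fold change of the members tested at 500 nM was 0.07 in OCI-Ly1 and -0.03 in TMD8, beside 0.00 and 0.04 for all genes tested.

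**Figure D2:**
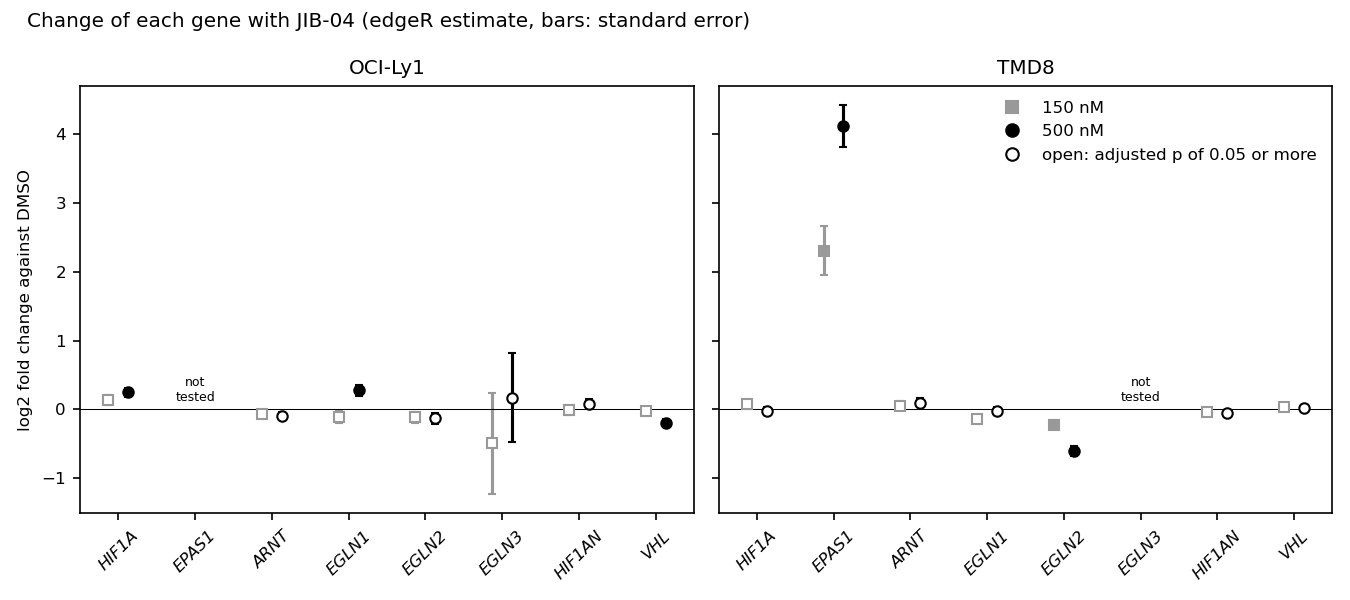
Log2 fold change of each member against DMSO (edgeR estimate, error bars: standard error) at 150 nM (squares) and 500 nM (circles) in OCI-Ly1 (left) and TMD8 (right); open symbols have an adjusted p of 0.05 or more. EPAS1 in TMD8 stands far above the other members at 2.31 and 4.12, and EGLN2 in TMD8 is the lowest called member at -0.60.

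EPAS1 encodes the alpha subunit of HIF-2, which pairs with ARNT and is known mostly from endothelial, kidney and carotid body cells. It was the member that changed most. In TMD8 it had 7, 5 and 5 counts in the DMSO libraries, 16, 20 and 43 in those treated at 150 nM, and 76, 73 and 66 at 500 nM. The 3 dose groups did not overlap, and each library of the higher dose exceeded every library of the lower. Group means were 0.325 ± 0.104, 1.56 ± 0.510 and 5.74 ± 0.904 CPM (SD, n = 3). EPAS1 was 4.95-fold higher at 150 nM (2.31 on the log2 scale, SE 0.36, edgeR adjusted p 5.2e-05) and 17.4-fold higher at 500 nM (4.12, SE 0.30, adjusted p 2.1e-09). From 150 to 500 nM EPAS1 gained a further 1.82 on the log2 scale (SE 0.23, edgeR adjusted p 1.8e-05). The call was kept under all 16 alternatives run in each of the 3 comparisons, but the size of the change was not. Over these alternatives the log2 change spanned 0.19 to 2.57 for the lower dose and 0.62 to 4.37 for the higher, each against DMSO. Between the doses it spanned 0.43 to 2.13. EPAS1 was below 1 TPM in every TMD8 library, where log2(TPM + 1) does not measure a fold change. The EPAS1 level stayed low in absolute terms, at 0.612 ± 0.134 TPM in TMD8 at 500 nM, beside 27.1 ± 2.28 TPM for HIF1A.

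In OCI-Ly1, EPAS1 had 4, 5 and 1 counts with DMSO, 4, 0 and 2 at 150 nM, and then 33, 7 and 20 at 500 nM. All of the 500 nM libraries exceeded all of the 150 nM libraries in counts. After scaling to depth the lowest 500 nM library, at 0.271 CPM, lay under the highest DMSO library at 0.293 CPM. Summed over the libraries of a group, EPAS1 had 10, 6 and 60 counts, or 0.146 CPM by library size (exact Poisson 95% interval 0.0700 to 0.269), 0.0871 (0.0319 to 0.189) and 0.694 (0.530 to 0.894). These intervals cover counting error only. In the edgeR fit without a low-count filter the change at 500 nM was 2.04 on the log2 scale (SE 0.65, adjusted p 0.0076), and that at 150 nM was -0.74 (SE 0.89, adjusted p 0.89).

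HIF1A encodes the alpha subunit of HIF-1, the more widely expressed of the HIF alpha genes. In OCI-Ly1 its libraries gave 183, 176 and 205 CPM with DMSO, 186, 209 and 225 at 150 nM, and then 224, 222 and 225 at 500 nM. All 500 nM libraries lay above all DMSO libraries, while the 150 nM libraries overlapped both groups. HIF1A was 1.19-fold higher at 500 nM (0.25 on the log2 scale, SE 0.07, edgeR adjusted p 0.0046) and was not called at 150 nM (0.13, adjusted p 0.52). On log2(TPM + 1) values centred on each library's median the 500 nM change was 0.16 and was not called (limma adjusted p 0.11). In TMD8 HIF1A gave 217, 200 and 190 CPM with DMSO, 221, 219 and 201 at 150 nM, and then 195, 196 and 204 at 500 nM, all overlapping. Its log2 fold change at 500 nM was -0.03 (SE 0.05, edgeR adjusted p 0.66), but -0.39 (limma adjusted p 0.0059) on uncentred log2(TPM + 1). At 150 nM it was 0.08 (edgeR adjusted p 0.26), called without the first DMSO library (0.13, adjusted p 0.038), without the third 150 nM library (0.15, adjusted p 0.040) and with library size only (0.16, adjusted p 0.0078). HIF1A-AS2, an antisense RNA at the HIF1A locus, was not called at either dose in either line. No strand is stated for the counting, so reads of HIF1A and of its antisense RNA could not be told apart.

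ARNT encodes the constitutive partner of HIF1A and EPAS1. Its OCI-Ly1 libraries gave 68.6, 70.8 and 73.9 CPM with DMSO, 68.9, 65.7 and 69.6 at 150 nM, and then 66.5, 67.1 and 66.6 at 500 nM. The 500 nM libraries all lay below the DMSO libraries, but the difference of -0.09 (SE 0.06, edgeR adjusted p 0.17) was not called. On centred log2(TPM + 1) it was -0.18 and was called (limma adjusted p 0.013). In TMD8 ARNT gave 58.6, 50.1 and 50.1 CPM with DMSO, 54.0, 54.8 and 55.7 at 150 nM, and then 55.2, 56.9 and 57.2 at 500 nM. The first DMSO library was the highest of all 9, and neither dose was called (0.05 and 0.09, edgeR adjusted p 0.51 and 0.21). Without that library the changes were 0.13 and 0.17 with edgeR adjusted p of 0.045 and 0.0085, and with scaling to library size only the 500 nM change was 0.19 (edgeR adjusted p 0.0091).

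EGLN1 encodes PHD2, the main prolyl hydroxylase that sets HIF1A stability. In OCI-Ly1 it gave 42.8, 49.2 and 52.3 CPM with DMSO, 39.6, 48.0 and 45.6 at 150 nM, and then 58.0, 56.1 and 60.2 at 500 nM. Every 500 nM library lay above every library of the other groups, which overlapped each other. EGLN1 was 1.21-fold higher at 500 nM than with DMSO (log2 difference 0.27, SE 0.08, edgeR adjusted p 0.0078) and 1.31-fold higher than at 150 nM (0.39, SE 0.08, adjusted p 7.0e-04). The comparison with DMSO rested on the first DMSO library, since without it the change was 0.19 (edgeR adjusted p 0.063). On centred log2(TPM + 1) it was 0.15 (limma adjusted p 0.17). In TMD8 EGLN1 gave 76.4, 76.1 and 70.0 CPM with DMSO, 71.0, 66.8 and 64.0 at 150 nM, and then 69.5, 76.8 and 72.1 at 500 nM. The 150 nM group was the lowest, overlapping DMSO, with a log2 fold change of -0.14 (SE 0.06, edgeR adjusted p 0.051). That value passed the threshold without the third DMSO library (-0.19, edgeR adjusted p 0.025) or the first 150 nM library (-0.18, adjusted p 0.021), and on centred log2(TPM + 1) (-0.16, limma adjusted p 0.045). It also passed with the replicate number as a block (-0.14, edgeR adjusted p 0.041). At 500 nM the change was -0.03 (SE 0.06, edgeR adjusted p 0.71), but -0.35 on uncentred log2(TPM + 1), where it was called (limma adjusted p 0.0089).

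EGLN2 encodes PHD1, a nuclear prolyl hydroxylase, and was the most abundant member by TPM in TMD8. Its TMD8 libraries gave 189, 231 and 236 CPM with DMSO, 196, 188 and 178 at 150 nM, and then 138, 144 and 149 at 500 nM. The 500 nM libraries lay below all others, and the first DMSO library fell within the 150 nM range. EGLN2 fell by 0.60 on the log2 scale at 500 nM (SE 0.07, edgeR adjusted p 6.1e-07), to 0.657 of its DMSO level, and by 0.38 from 150 to 500 nM (SE 0.07, adjusted p 5.4e-04). The 500 nM change was called under all 16 alternatives, between -0.97 and -0.51. At 150 nM EGLN2 was 0.22 lower (SE 0.07, edgeR adjusted p 0.012), a less firm result. The call was lost without the second DMSO library (-0.18, adjusted p 0.058), the third DMSO library (-0.17, adjusted p 0.073) or the third 150 nM library (-0.16, adjusted p 0.10). It was also lost in the fit of only the 2 groups compared (-0.19, edgeR adjusted p 0.056) and with scaling to library size only (-0.14, edgeR adjusted p 0.12).

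In OCI-Ly1 EGLN2 gave 84.9, 78.8 and 67.6 CPM with DMSO, 73.7, 70.2 and 69.6 at 150 nM, and then 65.9, 78.8 and 66.3 at 500 nM. These groups overlapped, and the 500 nM change of -0.13 (SE 0.08, edgeR adjusted p 0.17) was not called. It was called without the third DMSO library (-0.23, edgeR adjusted p 0.023) or the second 500 nM library (-0.23, adjusted p 0.032). EGLN2 shares exons with RAB4B-EGLN2, a read-through transcript from the neighbouring gene, between which reads may have been split. The read-through was at 14.7 CPM with DMSO in TMD8, 9.59 at 150 nM and 5.42 at 500 nM. RAB4B-EGLN2 fell by 0.62 (SE 0.16, edgeR adjusted p 0.0036) and 1.41 (SE 0.18, adjusted p 1.8e-06) on the log2 scale. RAB4B itself rose by 0.20 at 150 nM (SE 0.08, edgeR adjusted p 0.040) and stood at 0.06 (adjusted p 0.49) at 500 nM. With the counts of EGLN2 and RAB4B-EGLN2 added together, the TMD8 changes were -0.25 and -0.65 (edgeR adjusted p 0.0048 and 1.4e-07).

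EGLN2 was the only member tested in both lines whose change reached 0.5 on the log2 scale at a dose, the size set for a search of genes with the most similar pattern. Among 9948 genes, PFDN2, a subunit of the prefoldin chaperone, was nearest, with a root mean square difference of 0.0242 over the 4 log2 fold changes (2 doses in 2 lines). NDUFB7, a subunit of mitochondrial complex I, followed at 0.0270, and OVCA2 at 0.0339. For PFDN2 the log2 fold changes at 150 and 500 nM were -0.09 and -0.12 for OCI-Ly1 cells, and -0.21 and -0.57 for TMD8 cells.

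EGLN3 encodes PHD3, a hydroxylase that HIF strongly induces in many cell types. It had 2 to 14 counts per library in OCI-Ly1 and 2 to 11 in TMD8. Summed over the libraries of a group, EGLN3 gave 0.292, 0.218 and 0.370 CPM by library size in OCI-Ly1 and 0.251, 0.400 and 0.294 in TMD8, for DMSO, 150 nM and 500 nM. The Poisson 95% intervals all overlapped, spanning 0.122 to 0.523 CPM (OCI-Ly1) and 0.137 to 0.624 CPM (TMD8). A change in EGLN3 was not detectable at this depth (OCI-Ly1 at 500 nM: log2 difference 0.17, SE 0.64, edgeR adjusted p 0.84).

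HIF1AN encodes FIH, the asparaginyl hydroxylase that limits HIF transcriptional activity. In OCI-Ly1 it gave 31.6, 36.2 and 34.5 CPM with DMSO, 35.8, 32.2 and 33.3 at 150 nM, and then 35.4, 36.7 and 35.4 at 500 nM. TMD8 gave 84.7, 85.1 and 89.1 CPM with DMSO, 81.6, 86.0 and 83.2 at 150 nM, and then 80.5, 88.0 and 80.2 at 500 nM. Groups overlapped throughout, and no dose was called. The 500 nM log2 fold changes were 0.07 (SE 0.07, edgeR adjusted p 0.39) in OCI-Ly1 and -0.06 (SE 0.05, adjusted p 0.34) in TMD8. HIF1AN was called lower on log2(TPM + 1) in TMD8 at 500 nM, at -0.38 uncentred and -0.13 centred (limma adjusted p 0.0020 and 0.038).

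VHL, the tumour suppressor that recognises hydroxylated HIF alpha, was the member that fell in OCI-Ly1. Its libraries gave 182, 207 and 204 CPM with DMSO, 184, 203 and 193 at 150 nM, and then 173, 177 and 165 at 500 nM. The 500 nM libraries lay below all others. VHL was at 0.869 of its DMSO level (log2 difference -0.20, SE 0.06, edgeR adjusted p 0.0078) and lower than at 150 nM (-0.17, adjusted p 0.024). The first of these was not called with scaling to library size only (-0.12, edgeR adjusted p 0.091) or on log2(TPM + 1) (-0.06, limma adjusted p 0.48). The comparison of the doses was also lost on both of those scales, and without the second 150 nM or the third 500 nM library (-0.14, adjusted p 0.10 in each). In TMD8 VHL gave 98.5, 105 and 112 CPM with DMSO, 108, 104 and 110 at 150 nM, and then 109, 105 and 105 at 500 nM. These overlapped, with a log2 fold change of 0.02 (SE 0.05, edgeR adjusted p 0.81) at 500 nM that turned to -0.33 on log2(TPM + 1), where it was called (limma adjusted p 0.0038).

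Changes of the size seen for HIF1A, EGLN1 and VHL in OCI-Ly1 thus moved with the scaling. The median of all genes tested at 500 nM was 0.10 on log2(TPM + 1) in OCI-Ly1 and -0.22 in TMD8, so uncentred TPM changes are to be read against those shifts. Scaling to library size only moved it to 0.08 and 0.13. Among called genes, 51.6% were higher in OCI-Ly1 and 49.3% in TMD8 with TMM, 64.0% and 59.4% with library size only, 71.9% and 18.8% on log2(TPM + 1), and 32.3% and 48.3% after centring. The higher call of EPAS1 and the lower call of EGLN2 in TMD8 at 500 nM held on each of these scales.

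**Figure D3:**
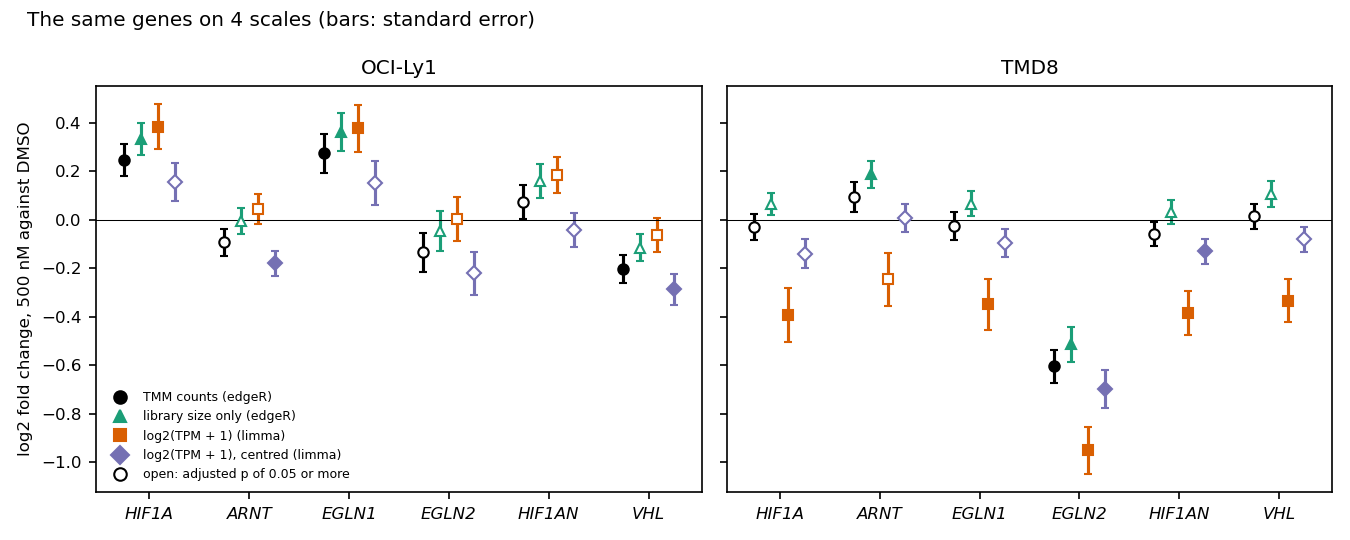
Log2 fold change at 500 nM against DMSO for the 6 members above the low-count filter in both lines, under 4 scalings (TMM counts and library size only with edgeR, log2(TPM + 1) uncentred and centred with limma); error bars are standard errors and open symbols have an adjusted p of 0.05 or more. EGLN2 in TMD8 is filled and below -0.5 on all 4 scales, while HIF1A, EGLN1 and VHL in OCI-Ly1 are filled on some and open on others.

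The lines already differed with DMSO. Of the 7 members tested in 1 edgeR fit of all 18 libraries, 6 were called, against 76.7% of all genes, 2 higher in OCI-Ly1 (37.8% of all genes) and 4 lower (39%). The same 6 did not overlap between the lines, as did not 76.4% of all genes. VHL was 1.72-fold (log2 difference 0.78, SE 0.06, adjusted p 7.1e-13) and ARNT 1.24-fold (0.31, SE 0.06, edgeR adjusted p 3.9e-05) higher in OCI-Ly1. EGLN2 (-1.62, SE 0.08, edgeR adjusted p 1.9e-16) and HIF1AN (-1.47, SE 0.06, adjusted p 2.7e-18) were lower in OCI-Ly1, at 0.324 and 0.362 of the TMD8 level. These 4 members kept direction and call under all 16 alternatives, but their size depended on the scale. Over the alternatives the log2 difference ran from 0.74 to 1.75 for VHL, 0.26 to 1.26 for ARNT, -1.71 to -0.64 for EGLN2 and -1.499 to -0.43 for HIF1AN, with the uncentred TPM scales at the upper end of each range. EGLN1 was at 0.595 of the TMD8 level (-0.75, SE 0.07, edgeR adjusted p 3.9e-10), but 0.19 higher and not called on log2(TPM + 1) (limma adjusted p 0.079). HIF1A was at 0.854 (-0.23, SE 0.07, edgeR adjusted p 0.0032), turned to 0.72 higher on log2(TPM + 1) (limma adjusted p 5.7e-06) and to 2.2e-05 after centring, so its direction between the lines depended on the scale. The median of all genes was itself 0.61 higher in OCI-Ly1 on log2(TPM + 1). EPAS1 was at 0.444 of the TMD8 level and was not called (-1.17, SE 0.69, edgeR adjusted p 0.12), except on centred log2(TPM + 1) (-0.73, limma adjusted p 4.6e-08). Over the alternatives the EPAS1 difference ran from -1.73 to -0.0079. EPAS1 was near the detection limit in both lines (0.0401 and 0.0456 TPM). At such levels centring mainly carries the difference between library medians into the value.

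The difference between the lines in their change with JIB-04 was tested as an interaction, coded as OCI-Ly1 minus TMD8. At 500 nM 3 of the 7 members tested were called, against 46.4% of all genes (28.2% in the positive direction that all 3 took): EGLN2 by 0.50 (SE 0.11, edgeR adjusted p 8.1e-04), EGLN1 by 0.33 (SE 0.10, adjusted p 0.010) and HIF1A by 0.31 (SE 0.09, adjusted p 0.0093). The fitted changes behind these were -0.13 and -0.60 for EGLN2, 0.27 and -0.03 for EGLN1 and 0.25 and -0.03 for HIF1A, in OCI-Ly1 and TMD8. ARNT differed by -0.15 (edgeR adjusted p 0.14). It passed the threshold without the first TMD8 DMSO library (-0.23, edgeR adjusted p 0.013) and with library size only (-0.19, edgeR adjusted p 0.040). Over the alternatives the ARNT difference ran from -0.23 to 0.32. The VHL difference of -0.19 (edgeR adjusted p 0.058) was called with library size only (-0.22, adjusted p 0.029), without the first OCI-Ly1 DMSO library (-0.24, adjusted p 0.017) and without the third TMD8 DMSO library (-0.23, adjusted p 0.029). It turned to 0.27 on log2(TPM + 1) (limma adjusted p 0.025). At 150 nM only EPAS1 was called, 1 of 7 against 23.3% (8.33% in the negative direction), with -3.02 (SE 1.01, edgeR adjusted p 0.030). The EPAS1 call rested on few counts and was lost without any 1 of 5 libraries: the first or second OCI-Ly1 DMSO, the second OCI-Ly1 150 nM, the third TMD8 DMSO or the third TMD8 150 nM library (-2.97 to -2.41, edgeR adjusted p 0.053 to 0.15). At 500 nM the EPAS1 difference was -2.02 (SE 0.85, edgeR adjusted p 0.052), not called, but it was called under 9 of 22 alternatives. Among these, DESeq2 gave -1.999 with an adjusted p of 0.019, and log2(TPM + 1) gave -0.45 (limma adjusted p 3.5e-04).

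Ratios of TPM within a library do not depend on how libraries are scaled to each other; the pairs given here were chosen after their values were seen, so no test is attached. In OCI-Ly1 the ratio of HIF1A to VHL was 1.14, 0.959 and 1.13 with DMSO, 1.14, 1.16 and 1.32 at 150 nM, and then 1.46, 1.41 and 1.54 at 500 nM. All 500 nM libraries exceeded the others. The ratio of HIF1A to ARNT in that line moved from 3.21 ± 0.178 to 3.69 ± 0.359 and 4.06 ± 0.0483 (SD, n = 3), again without overlap between DMSO and 500 nM. In TMD8 the ratio of HIF1A to ARNT was instead lower at 500 nM, at 4.29, 4.17 and 4.32 against 4.50, 4.85 and 4.59 with DMSO, without overlap. HIF1A to VHL in TMD8 was 2.19 ± 0.294, 2.26 ± 0.162 and 2.10 ± 0.0843, with overlapping libraries. The ratio of EGLN2 to HIF1A in that line went from 1.69, 2.24 and 2.41 with DMSO to 1.73, 1.66 and 1.72 at 150 nM, and then 1.38, 1.43 and 1.43 at 500 nM. The 500 nM libraries were the lowest in each case.

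Within the prolyl hydroxylases, EGLN2 made up most of the RNA by TPM in every library. EGLN1 accounted for 15.3% of the summed TPM of EGLN1, EGLN2 and EGLN3 with DMSO and 19.3% at 500 nM in OCI-Ly1, a difference of 3.95 percentage points. An exact two-sided permutation test of 3 against 3 libraries gave p 0.2, and the groups overlapped. In TMD8 the share went from 8.996% to 12.7%, by 3.70 points, with no overlap and an exact two-sided permutation p of 0.1, the smallest that this design can give. Neither difference could pass the 0.05 threshold, since this test cannot reach it with 3 against 3 libraries.

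**Figure D4:**
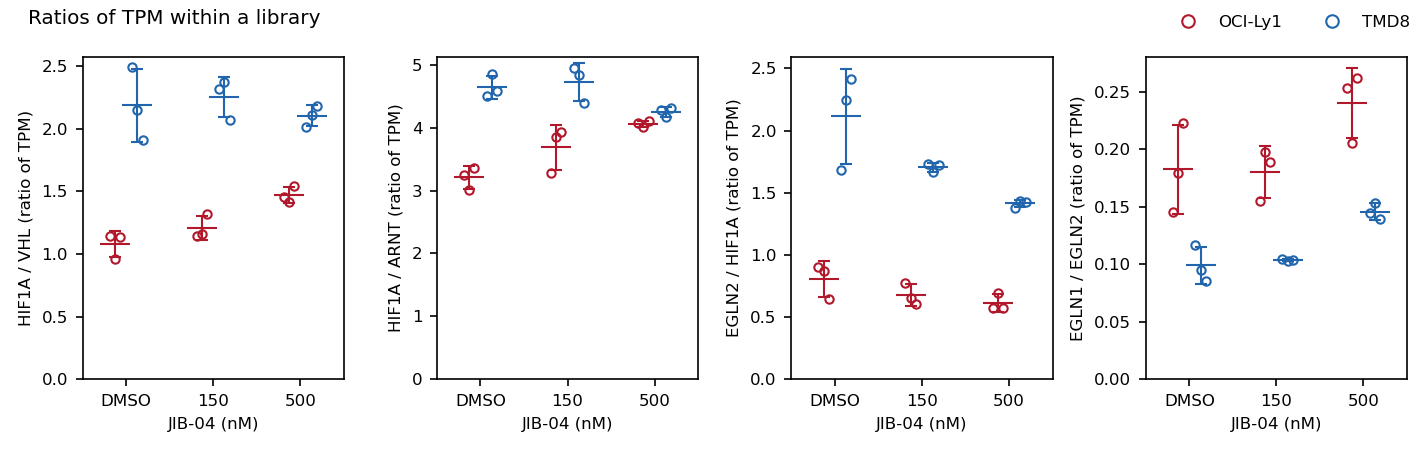
Ratios of TPM between pairs of members, with points for single libraries, horizontal bars for the mean of 3 libraries and error bars for the SD, by dose in OCI-Ly1 and TMD8. HIF1A / VHL rises to 1.47 in OCI-Ly1 and stays near 2.1 in TMD8, EGLN2 / HIF1A falls to 1.41 in TMD8, and EGLN1 / EGLN2 is highest at 500 nM in both lines, with 1 OCI-Ly1 library inside the DMSO range.

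Around these 8 genes, 30 further genes of HIF turnover and function were listed (HIF pathway partners). At 500 nM, 10 of the 29 tested in OCI-Ly1 were higher and 10 lower (27.7% and 25.9% of all genes), with a median of 0.05 beside 0.00. In TMD8 6 of 30 were higher and 17 lower (29.9% and 30.7%), with a median of -0.28 beside 0.04. With library size only, the splits were 14 to 8 and 8 to 16, on log2(TPM + 1) 15 to 5 and 2 to 23, and after centring 8 to 12 and 5 to 20. At 150 nM OCI-Ly1 had 1 higher and 0 lower (0.748% and 0.141% of all genes), and TMD8 4 and 15 (19.2% and 25%). With library size only TMD8 had 6 and 13, beside 4098 and 2679 of all 15363 genes. The 6 genes of the ligase that VHL serves and of its activation (TCEB1 and TCEB2, the elongins, CUL2, RBX1, NEDD8 and UBE2M) were grouped after their values were seen. All 6 were lower in TMD8 at 500 nM, from -0.66 to -0.45 (log2), on each scale. They were lower at 150 nM too, from -0.43 to -0.14, with 1 of the 6 not called under library size only. In OCI-Ly1 only RBX1 (-0.38) and NEDD8 (-0.20) were called lower at 500 nM, and NEDD8 was not called on log2(TPM + 1), where 2 of the 6 were higher. After centring 4 of the 6 were lower in OCI-Ly1 and 0 higher. VHL itself was at 0.02 in TMD8 at 500 nM.

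HSP90AA1, HSP90AB1 and PTGES3, chaperones that hold HIF alpha, fell in both lines at 500 nM on each scale. HSP90AB1 changed by -1.02 in OCI-Ly1 and -0.76 in TMD8, HSP90AA1 by -0.85 and -0.82, and PTGES3 by -0.50 and -0.80. CITED2, which competes with HIF for the coactivators EP300 and CREBBP and is a HIF target itself, rose in both, by 0.76 and 0.77. EIF4EBP1, a brake on cap-dependent translation, rose by 2.06 in OCI-Ly1 (edgeR adjusted p 3.9e-14) and 0.28 in TMD8 (adjusted p 0.0023), the latter turning to -0.08 and not called on log2(TPM + 1). USP20, a deubiquitinase reported to act on HIF alpha, rose by 0.80 and 0.33, and in TMD8 stood at -0.03 on log2(TPM + 1), not called. P4HTM, a transmembrane prolyl hydroxylase related to the EGLN enzymes, rose by 1.02 in TMD8 and was at 0.23 (edgeR adjusted p 0.051) in OCI-Ly1, called there on log2(TPM + 1) (0.35). ARNT2, the ARNT paralog, was below the filter in OCI-Ly1 and rose by 0.57 in TMD8, where it was not called on log2(TPM + 1) (0.08).

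The 40 listed HIF target genes moved in both directions. At 500 nM 15 of 36 tested were higher and 12 lower in OCI-Ly1, (27.7% and 25.9% of all genes), with a median of 0.03 beside 0.00, and 19 of 37 higher and 9 lower in TMD8 (29.9% and 30.7%), with a median of 0.20 beside 0.04. The TMD8 split became 8 higher and 15 lower on log2(TPM + 1), and 18 and 9 after centring. Splitting the list after its values were seen separated glucose uptake, glycolysis and lactate genes from the rest. Of the 17 glucose genes, 11 were lower and 5 higher in OCI-Ly1 and 8 lower and 6 higher in TMD8, which became 10 and 3 on log2(TPM + 1). Of the others, 10 of 19 were higher and 1 lower in OCI-Ly1, and 13 of 20 higher and 1 lower in TMD8, the latter becoming 5 and 5 on log2(TPM + 1).

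LDHA, which makes lactate, gave 810, 925 and 990 CPM with DMSO and 457, 436 and 434 at 500 nM in OCI-Ly1, and 1046, 986 and 991 against 396, 406 and 403 in TMD8. It fell by 1.04 and 1.33 on the log2 scale (edgeR adjusted p 9.8e-11 and 1.6e-11). ENO1 fell by 0.46 and 0.80 and HK2, which traps glucose in the cell, by 0.28 and 1.05, although HK2 in OCI-Ly1 was not called on log2(TPM + 1) (-0.13). VEGFA, the angiogenic growth factor, moved the other way, from 4.64, 6.75 and 7.99 to 51.5, 50.5 and 42.0 CPM in OCI-Ly1 and from 36.7, 37.1 and 39.7 to 65.8, 63.2 and 67.6 in TMD8. Its log2 fold changes were 2.90 (SE 0.14) and 0.79 (SE 0.06). DDIT4, an inhibitor of mTORC1 signalling that other stresses induce too, rose by 2.88 and 2.26. NDRG1 rose from 3.37 ± 0.342 to 17.9 ± 0.597 CPM in TMD8 (2.41) and from 0.106 ± 0.0231 to 1.49 ± 0.169 CPM in OCI-Ly1 (3.77, from few counts). CXCR4, a chemokine receptor, rose by 0.79 and 0.43, with 0.05 and no call in TMD8 on log2(TPM + 1).

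Some targets changed in 1 line only or in opposite directions. ALDOC fell by 0.79 in OCI-Ly1 and rose by 1.22 in TMD8. PFKFB4 fell by 1.41 in OCI-Ly1 and was at 0.05 in TMD8, not called. P4HA2, a collagen prolyl hydroxylase, rose by 1.39 in TMD8 and was at -0.02 in OCI-Ly1. In OCI-Ly1 P4HA2 was near the detection limit, at 0.479 CPM with DMSO and 0.474 at 500 nM (scaled over all 18 libraries). At 150 nM, where 22 genes in all were called lower in OCI-Ly1 (0.141%), 8 of the 17 glucose genes were among them: LDHA, PGK1, ENO1, ALDOA, ALDOC, TPI1, GPI and PFKFB4. The call count of the whole target list there, 10, fell to 5 without the second DMSO library, 3 without the second 150 nM library, 6 without the third 150 nM library and 5 in the fit of only the 2 groups compared. Calls among all genes also fell in these fits, from 139 to 86, 65, 106 and 81 in the same order. On log2(TPM + 1) 1 of the 17 was called lower, and 1 gene in all. In TMD8 11 targets were higher and 12 lower at 150 nM (19.2% and 25% of all genes). On log2(TPM + 1) they were 7 and 12, where 5312 of 15363 genes were called in either direction.

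**Figure D5:**
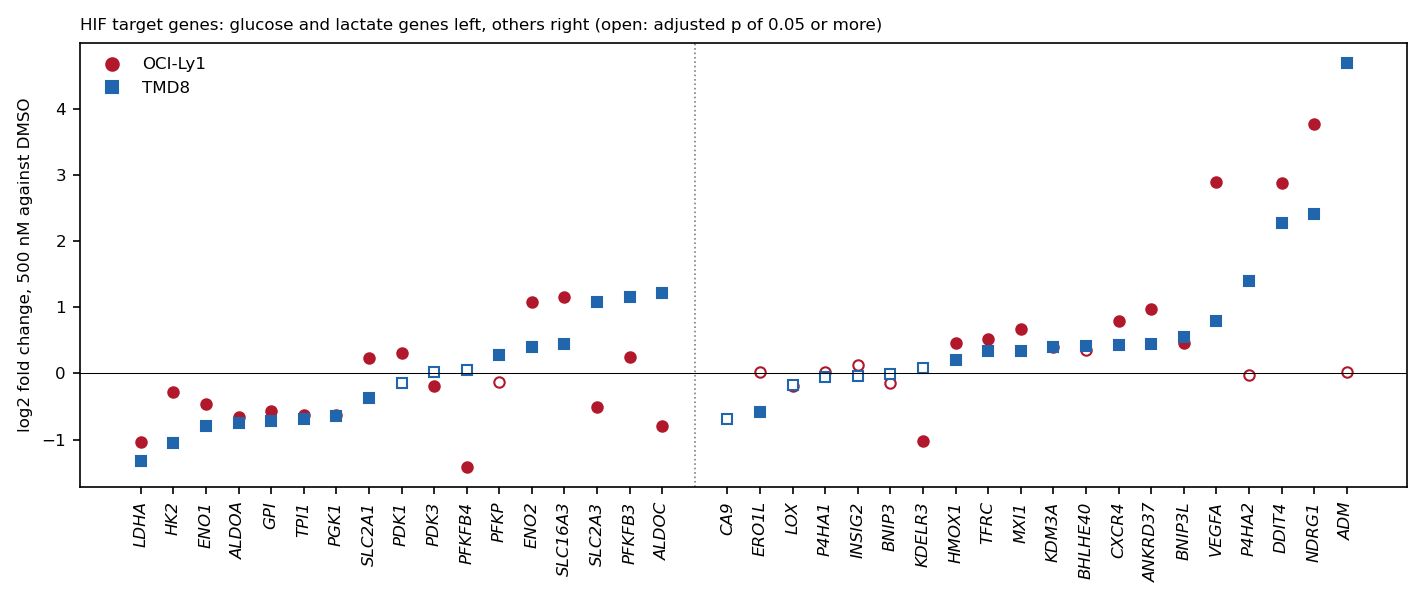
Log2 fold change at 500 nM against DMSO (edgeR with TMM) of the HIF target genes tested, for OCI-Ly1 (circles) and TMD8 (squares), with glucose and lactate genes left of the dotted line and the others right of it; open symbols have an adjusted p of 0.05 or more. LDHA, HK2 and ENO1 lie below 0 in both lines, and VEGFA, DDIT4 and NDRG1 above 0 in both.

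The hydroxylases belong to a wider family of 2-oxoglutarate oxygenases, of which 35 outside the HIF pathway and the histone demethylases were listed. None was called in OCI-Ly1 at 150 nM by edgeR (0.889% of all genes), DESeq2 or limma, and 4 had an unadjusted edgeR p under 0.05. In TMD8 6 were higher and 7 lower at 150 nM (19.2% and 25% of all genes). With library size only they were 8 and 2, beside 4098 and 2679 of all 15363 genes. On log2(TPM + 1) they were 1 and 7, where 5312 genes were called in either direction. The TMD8 total of 13 was 8 without the third DMSO library and 7 without the third 150 nM library. Calls among all genes went from 6790 to 6348 and 5261 in those fits. At 500 nM 14 of 31 were higher and 4 lower in OCI-Ly1 (27.7% and 25.9% of all genes), and 12 and 10 of 31 in TMD8 (29.9% and 30.7%). These splits were 16 to 2 and 13 to 8 with library size only, 16 to 1 and 3 to 17 on log2(TPM + 1), and 8 to 10 and 10 to 13 after centring, so the balance of directions depended on the scale. PHYHD1 rose in both lines (0.35 and 1.10), as did TET3 (0.22 and 0.73), an enzyme that oxidises 5-methylcytosine, while JMJD6 fell in both (-0.29 and -0.25). TET3 in OCI-Ly1 was not called after centring (0.06), and neither was JMJD6 in OCI-Ly1 on log2(TPM + 1) (-0.05). BBOX1, which makes carnitine, fell by 1.11 in OCI-Ly1 from 111 ± 3.71 CPM and was below the filter in TMD8. PLOD3, a collagen lysyl hydroxylase, rose by 0.87 in OCI-Ly1 and fell by 0.23 in TMD8, where it was not called with library size only. MINA, a ribosomal histidine hydroxylase, fell by 0.94 in TMD8 and rose by 0.17 in OCI-Ly1, where it was not called after centring (0.06).

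Succinate and fumarate compete with 2-oxoglutarate at these enzymes, so 26 genes that make or use the 3 metabolites were listed. At 500 nM 5 of 25 tested were higher and 11 lower in OCI-Ly1 (27.7% and 25.9% of all genes), with a median of -0.13 beside 0.00, and 4 and 19 of 25 in TMD8 (29.9% and 30.7%), with a median of -0.35 beside 0.04. With library size only these were 6 and 8, and 4 and 16, on log2(TPM + 1) 6 and 6, and 2 and 21, and after centring 4 and 15, and 3 and 21. At 150 nM 3 were higher and 0 lower in OCI-Ly1 (0.748% and 0.141% of all genes). After centring these were 1 and 0, beside 49 and 1 of all 15638 genes. In TMD8 2 were higher and 18 lower, where 19.2% and 25% of all genes were called. OGDH, the subunit that consumes 2-oxoglutarate in the citric acid cycle, fell by 0.58 and 0.70, IDH3A by 0.47 and 1.10 and IDH2 by 0.69 and 0.39. PSAT1 and GPT2, transaminases that release 2-oxoglutarate from glutamate, rose by 2.46 and 1.01 and by 1.39 and 1.58. BCAT1 rose by 1.55 in OCI-Ly1 and fell by 0.44 in TMD8. Of 8 genes that handle succinate and fumarate, grouped after their values were seen, 7 were lower in TMD8 at 500 nM (SDHA at -0.02 being the exception) and 4 in OCI-Ly1 (SUCLG1, SUCLG2, SDHC and FH). SDHA was lower too in TMD8 on log2(TPM + 1) (-0.39), and there 2 of the 8 were lower in OCI-Ly1. After centring 6 of 8 were lower in OCI-Ly1 and 8 of 8 in TMD8.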

How the data were processed

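Per the labels, bulk RNA was sequenced from 18 libraries, 3 per group. For each line the authors deposited estimated counts in 1 table and TPM in another, each with 23686 genes; 0 columns lacked a sample. The submitters' processing notes name kallisto 0.46.0, R 4.3.1, DESeq2 1.40.2 and hg19; the index, annotation and transcript-to-gene step are not given in the sources used here. TPM correct for length and force each library to 1 total, so a few abundant genes can shift all others.

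Estimated counts were rounded, filtered with filterByExpr, scaled with TMM and tested with the quasi-likelihood test of edgeR 4.0.16 (R 4.3.3, limma 3.58.1), over the 9 libraries of a line or all 18 for differences between lines. Calls used a Benjamini-Hochberg adjusted p under 0.05 over all genes tested: 15638 in OCI-Ly1, 15363 in TMD8 and 16604 jointly. CPM are TMM-scaled; SE is the standard error of the log2 fold change. Log2(TPM + 1) was tested with limma, also centred on each library's median. Alternatives were DESeq2 1.42.0, its size factors, library size only, no filter, a TPM pseudocount of 0.1, only the groups compared, a replicate block and each library left out. EGLN2 summed with its read-through was added after seeing the data.

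Members and lists were chosen with earlier results of these data known, and subgroups and ratios after values were seen. Genes named from a list were, per line, up to 3 higher and 3 lower at 500 nM with the largest change, an adjusted p under 0.05, at least 5 CPM in the higher group and no overlap; other genes named were chosen after their values were seen. Similar genes were sought for members tested in both lines with a change of at least 0.5, among genes of at least 5 CPM.

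On simulated counts with 200 changed genes, 100% of log2 changes of 1 were recovered in each line at 500 nM, and 91% (OCI-Ly1, 15358 genes) and 85% (TMD8, 15032 genes) of changes of 0.5. Recovery below 0.5, the size of the HIF1A, EGLN1 and VHL changes called in OCI-Ly1, was not tested. Recovery was also not tested with as many genes changed as were called at 500 nM, 53.6% in OCI-Ly1 and 60.7% in TMD8. No replicate pair matched within sampling noise (chi-square per degree of freedom 1.62 to 10.9). The highest values, 10.3 and 10.9, were for TMD8 DMSO replicate 1 against replicates 2 and 3, which gave 1.90 with each other. Replicate 1 also had the lowest TMM factor of its line (0.939), and it was kept in every main TMD8 comparison with DMSO. Pairs of OCI-Ly1 reached 9.85 (150 nM, replicates 1 and 3). Same-numbered libraries deviated together weakly at most (correlations from -0.0545 to 0.146 over 18 pairs), so numbers were not taken as pairs. The highest, 0.123 to 0.146, were for the first and the third libraries of DMSO with 150 nM in both lines. Intervals on summed counts are exact Poisson at 95%.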

Additional observations from a re-analysis of the deposited data

Results flagged for a closer look

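For the results in this section the change with JIB-04 differed between the lines in the edgeR interaction test (adjusted p under 0.05), given as the OCI-Ly1 log2 change minus the TMD8 log2 change. Among the members this was EPAS1 at 150 nM (-3.02) and, at 500 nM, EGLN2 (0.50), EGLN1 (0.33) and HIF1A (0.31).

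At 500 nM 28.2% of all genes tested had a positive and 18.1% a negative difference. The values that follow are only for genes named in the text by the rule on 500 nM changes, and whole-list tallies stand beside them. Of the HIF pathway partners 21 of 30 were positive and 2 negative, among them EIF4EBP1 (1.81), USP20 (0.50), PTGES3 (0.33), HSP90AB1 (-0.23) and P4HTM (-0.76). Of the HIF targets 16 of 37 were positive and 8 negative, and the named ones gave VEGFA 2.14, NDRG1 1.37, HK2 0.80, DDIT4 0.64, CXCR4 0.39, ENO1 0.37 and LDHA 0.32 on the positive side. P4HA2 (-1.38), PFKFB4 (-1.43) and ALDOC (-1.98) lay on the negative side. P4HA2 and, with DMSO, NDRG1 were near the detection limit in OCI-Ly1. For the other oxygenases the tally was 11 positive and 5 negative of 32. Among those named, MINA (1.15), PLOD3 (1.12), ALKBH8 (0.77), PLOD1 (0.67) and ALKBH2 (0.63) changed more positively in OCI-Ly1, and TET3 (-0.48), PHYHD1 (-0.72) and HSPBAP1 (-0.91) more positively in TMD8. Of 25 metabolic enzymes 12 were positive and 2 negative, and the named ones gave 2.02 for BCAT1, 1.48 for PSAT1, 0.78 for SDHB, 0.67 for IDH3A, 0.53 for GOT2 and -0.26 for IDH2.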

How the results depend on the processing

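The number of members called moved with the scale and with single libraries. On log2(TPM + 1) and log2(TPM + 0.1) it was 6 for TMD8 at 500 nM, where 9332 and 9340 of all 15363 genes were called. It was 1 for OCI-Ly1 at 500 against 150 nM, beside 6821 and 6776 of 15638 genes. The difference between lines at 500 nM had 6, beside 10216 and 9773 of 16604 genes. Library size only gave 5 for that difference, beside 7603 genes. The difference at 150 nM had 0 on log2(TPM + 1), beside 4027 of 16604 genes. TMD8 at 150 nM had 1 in the fit of only the groups compared, beside 5899 of 15185 genes. Leaving out each library in turn gave 0 to 0 called members for OCI-Ly1 at 150 nM, 3 to 5 at 500 nM and 1 to 4 at 500 against 150 nM. For TMD8 the ranges were 1 to 4, 2 to 3 and 2 to 3, for the differences at 150 and 500 nM 0 to 1 and 3 to 5, and for the lines with DMSO 6 to 6. Over the same fits, and in the same order, calls among all genes ran from 65 to 339, 7310 to 7796 and 6019 to 7007 in OCI-Ly1. In TMD8 they ran from 5261 to 6811, 8414 to 9101 and 3273 to 4953. The differences had 2768 to 4095 and 6860 to 7406, and the lines with DMSO 12273 to 12622. The EGLN1 share was higher by 2.63 to 5.38 points in OCI-Ly1 and 3.14 to 4.43 in TMD8 without 1 library, and by 6.80 and 8.07 when taken from CPM. Some values reversed on log2(TPM + 1) and log2(TPM + 0.1) where the main or the alternative value was called. These were -0.33 and -0.35 for VHL in TMD8 at 500 nM and 0.27 and 0.29 for its difference between lines. Between lines with DMSO they were 0.72 and 0.74 for HIF1A (2.2e-05 after centring) and 0.19 and 0.22 for EGLN1. With the replicate block, EGLN1 in TMD8 at 150 nM passed the threshold (-0.14, edgeR adjusted p 0.041), the EGLN1 share gave an exact p of 0.25 in each line, and no other call of a member changed; the libraries share only a number. Of the alternative values for single genes and lists, 1258 kept their call, 43 newly passed the threshold and 23 no longer passed it. A further 12 counts moved by over 1.5 times, and 9 values changed sign where the main or the alternative value was called. Sign changes of values called in neither fit were left among the 1258. ARNT in TMD8 at 500 nM, for example, ran from -0.28 to 0.19. Depth limits EGLN3 (2 to 14 counts per library) and, with DMSO in both lines and at 150 nM in OCI-Ly1, EPAS1 (0 to 7 counts).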
